A study of Homo sapiens with 12 samples.

Results

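Full serum was compared with charcoal-stripped serum in LNCaP cells that had been exposed to docetaxel. The comparison used 4 of the 12 arrays of the series, chosen by their labels alone, with 2 arrays of docetaxel in charcoal dextran treated serum and 2 of docetaxel in full serum. LNCaP is an established, androgen-responsive human prostate cancer line, and all cells carried the control plasmid MSCV-LMP, so every group shares that infection. Docetaxel was given at 1 nM for 16 h. The other 8 arrays came from the same line and time, with 2 arrays in each serum for ethanol vehicle and 2 in each serum for 1 nM cabazitaxel, and they served to estimate the spread and to set the serum difference beside that under other treatments. Transcripts were measured on an Affymetrix Human Gene array, and levels are given as log2 of the normalised intensity. Nothing in the labels says that replicates were separate cultures, so each p-value reflects only how far the arrays of a group differed, a spread that may be technical.

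Charcoal treatment strips steroid hormones and other small lipophilic molecules from serum, so cells in full serum meet androgens and further factors that cells in charcoal serum largely lack. In prostate cells, androgen acts through DNA response elements and raises genes such as those of the kallikrein proteases. Docetaxel is a taxane that binds and stabilises microtubules and so disturbs the mitotic spindle. Charcoal serum is no pure test of androgen, since growth factors, lipids and other hormones can differ too.

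The line's identity was checked on marker genes. Of 21 prostate luminal markers, 11 were measured, and the folate hydrolase gene FOLH1, which encodes prostate-specific membrane antigen, had mean log2 levels of 10.08 in charcoal and 9.78 in full serum under docetaxel. The epithelial adhesion gene EPCAM had 7.73 and 7.90, and the prostate homeobox gene HOXB13 had 6.63 and 6.65. Of 19 leukocyte and endothelial markers only 8 had a named transcript cluster, and 5 of these passed the filter on low values. Markers without a named cluster were not measured. The endothelial gene VWF was at 4.73 and 4.71, and KDR at 4.43 in both sera. The leukocyte genes CD68, CSF1R and NKG7 had full minus charcoal differences of -0.003, -0.011 and -0.142, none called. Replicates correlated across genes with r = 0.9896 in charcoal and 0.9922 in full serum, and the number of arrays limits the precision.

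Under docetaxel, androgen-induced genes led the genes that were higher in full serum, and the lower genes included the sestrin genes SESN1 and SESN3 and the chemokine gene CCL2. The TCR gamma alternate reading frame gene TARP and the kallikrein gene KLK2 had the 2 largest rises, of 4.11-fold and 2.62-fold, and the tolloid-like protease gene TLL1 had the largest fall, of 2.16-fold. Limma called 35 of 11105 genes (0.315% of those tested) at an adjusted p under 0.05, with 18 higher (0.162%) and 17 lower (0.153%) in full serum. Called rises ran from 0.44 to 2.04 and called falls from 0.49 to 1.11 on the log2 scale. At an unadjusted p under 0.05 stood 903 genes (8.13%), 448 of them higher (4.03%) and 455 lower (4.1%), where 555 would be reached by chance. Over all tested genes the median difference was 0.0079 and 52.9% were higher. The 4 arrays fell apart by serum for every called gene and for 39.6% of all genes tested, but calls made on the same arrays all but fix this, so it adds no support. The number called depended on single arrays. Limma called 21 genes without charcoal docetaxel replicate 1, 12 without charcoal docetaxel replicate 2, 7 without full-serum docetaxel replicate 1 and 7 without full-serum docetaxel replicate 2, and the lone array left was then assumed to vary like the other groups. Of the 35 genes, CENPN, HERC3, STK39, TARP, TLL1 and ZBTB10 were called in all 4 of these fits. KLK2 lost its call without charcoal docetaxel replicate 2 or full-serum docetaxel replicate 2 (adjusted p up to 0.0744), SESN1 and SNAI2 lost theirs without either full-serum array (up to 0.0854 and 0.0676), and RASSF3 without full-serum docetaxel replicate 1 (up to 0.0676). All 35 genes kept their direction in each of these fits, an outcome fixed in advance because their arrays did not overlap between the sera.

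**Figure D1:**
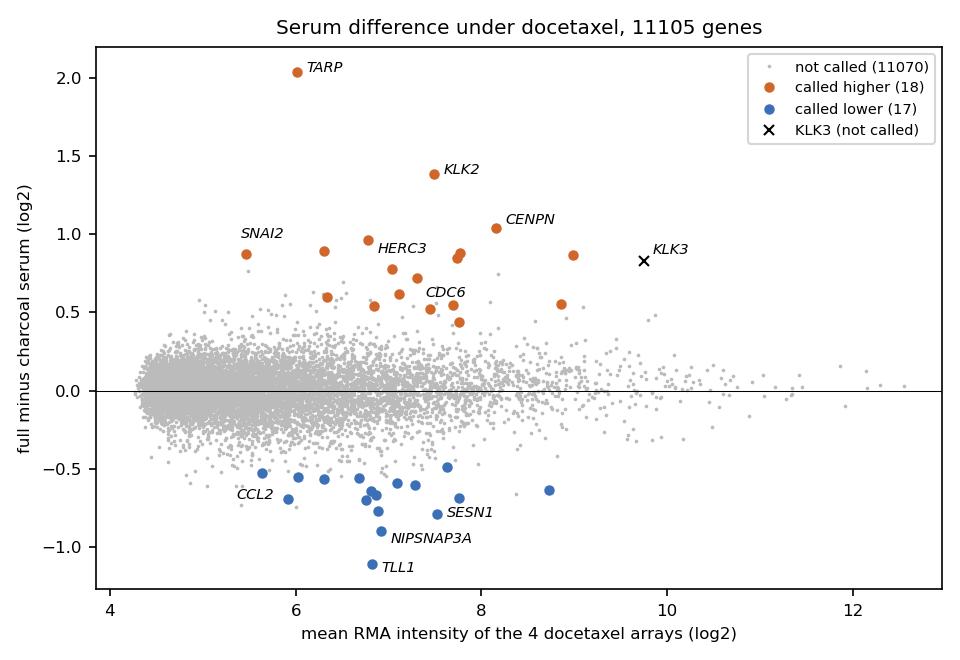
Each point is 1 of 11105 genes, with the mean log2 intensity of the 4 docetaxel arrays on the x axis and the full minus charcoal difference (log2) on the y axis. Orange points are the 18 genes called higher in full serum, blue points the 17 called lower, grey points were not called, and the cross is KLK3, which sits at 0.83 without passing the test.

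The called rises were led by androgen-induced genes. TARP (transcript cluster 17056817), which prostate cells transcribe from within the T-cell receptor gamma locus under androgen, had log2 intensities of 5.02 and 4.95 in the charcoal arrays and 6.86 and 7.20 in the full-serum arrays. Its difference was 2.04 (SE 0.101, 95% CI 1.82 to 2.26, limma adjusted p = 4.87e-06). KLK2 (16864628), a secreted trypsin-like protease of prostate epithelium, stood at 6.88 and 6.71 in charcoal and at 8.03 and 8.34 in full serum. Its difference was 1.39 (SE 0.159, 95% CI 1.04 to 1.74, limma adjusted p = 0.00333). In both genes the 2 full-serum arrays lay above the 2 charcoal arrays by far more than replicates differed, which a call all but requires. TARP lies within a larger receptor locus, and whether its probes also read neighbouring transcripts was not tested.

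KLK3, which encodes prostate-specific antigen, had log2 levels of 9.42 and 9.24 in charcoal and 10.16 and 10.15 in full serum. The 4 arrays did not overlap by serum, as for 39.6% of all genes tested. The difference of 0.83 (SE 0.176, 95% CI 0.44 to 1.21) did not pass (limma adjusted p = 0.108). The third measured kallikrein gene, KLK4, had 8.03 and 7.92 in charcoal against 8.47 and 8.28 in full serum, a difference of 0.40 (95% CI 0.20 to 0.61, limma adjusted p = 0.141). FKBP5, a cochaperone of steroid receptors and a standard androgen reporter, had 4.78 and 4.74 against 5.24 and 5.28, a difference of 0.50 (95% CI 0.27 to 0.73, limma adjusted p = 0.102). All 3 genes were higher in both full-serum arrays without passing over the whole array. FKBP5 lies low on the array, and its difference was 1.01 once an assumed constant of 16 was subtracted from every intensity.

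KLK2 and KLK3 are neighbouring, similar genes, and their start regions are shown because KLK2 was the kallikrein gene called under docetaxel. The sequences below are RefSeq promoters on GRCh38.p14, 250 bases before each start on the plus strand, at chr19:50854665-50854914 for KLK3 and chr19:50873189-50873438 for KLK2. Capitals mark the match to GAACA, any 4 bases and GTNCT, a loose form of the androgen response element that was chosen after these windows had been seen. The match begins 169 bases before the start of KLK3 and 175 before that of KLK2.
KLK3: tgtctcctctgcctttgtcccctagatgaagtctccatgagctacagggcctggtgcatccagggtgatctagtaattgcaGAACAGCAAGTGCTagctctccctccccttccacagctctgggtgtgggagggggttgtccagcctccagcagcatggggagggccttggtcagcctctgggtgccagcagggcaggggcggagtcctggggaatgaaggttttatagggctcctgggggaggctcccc
KLK2: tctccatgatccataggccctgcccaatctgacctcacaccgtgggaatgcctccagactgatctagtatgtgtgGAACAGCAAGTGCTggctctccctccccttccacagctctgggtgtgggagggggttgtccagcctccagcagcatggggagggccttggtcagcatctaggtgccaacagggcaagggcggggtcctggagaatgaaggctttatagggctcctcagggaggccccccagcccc
The matched letters are the same in both genes, GAACAGCAAGTGCT. Aligned at the match, 185 of 244 bases (75.8%) were identical. Searched on both strands of the 250 bases before each start, the motif was in 76 of 35116 promoters (0.22%) and, among the called genes that matched the promoter table, only in that of KLK2. The shorter half-site AGAACA was in 12.39% of all promoters, in 1 of 21 promoters of 15 called higher genes (STK39) and in 2 of 21 promoters of 12 called lower genes (USP54). A match describes letters and shows no binding.

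Further androgen-induced genes rose by smaller amounts. CENPN (16821239), a kinetochore protein gene that also stands on the mitosis list, had 7.64 in both charcoal arrays and 8.67 and 8.68 in the full-serum arrays, a rise of 1.04 (SE 0.0854, limma adjusted p = 0.000528). STK39 (16904741), which encodes a kinase that regulates ion cotransporters, had 8.58 and 8.53 against 9.42 in both full-serum arrays, a rise of 0.87 (SE 0.0801, limma adjusted p = 0.000881). HERC3, a HECT-type ubiquitin ligase gene, had 6.33 and 6.26 against 7.17 and 7.35, a rise of 0.96 (SE 0.0828, limma adjusted p = 0.00055). Replicates of these genes differed by much less than the sera did, which the calls themselves favour, so it adds no support. ZBTB10, a zinc finger factor gene, rose by 0.78, the scaffold gene HOMER2 by 0.60, UAP1, an enzyme gene of amino sugar synthesis, by 0.56, and ELOVL5, a fatty acid elongase gene, by 0.54. With the assumed constant of 16 subtracted, HOMER2, UAP1 and ELOVL5 lost their calls and ZBTB10 kept its call. ELOVL5 was not called with no filter on low values or with an intensity trend either.

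Of 109 androgen-induced genes listed, 59 were tested, and 53 of these were higher and 6 lower in full serum. Limma called 10 of the 59 higher and 0 lower, beside 0.162% and 0.153% of all genes. At an unadjusted p under 0.05, 27 were higher and 0 lower, beside 4.03% and 4.1% of all genes. The median difference of the 59 was 0.227, against 0.0079 over all genes. The arrays of 40 lay apart with full serum above and those of 2 with full serum below, where 20.9% and 18.7% of all genes did so. This list, like the others here, was chosen with earlier results of these data known. Its counts, shares and median are therefore no independent support. The tenth called member is C1orf116, at 0.62, which was named after its value was seen. Not every member moved. STEAP4, a metalloreductase gene, had a difference of -0.06, and HMGCS1, an enzyme of sterol synthesis, also had -0.06.

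Androgen-repressed genes were tested in 8 of 21 cases, with 7 lower and 1 higher in full serum, a median of -0.231 and 0 called by limma. At an unadjusted p under 0.05, 2 were lower and 0 higher, beside 4.1% and 4.03% of all genes. Without full-serum docetaxel replicate 2 the median was -0.142. CAMK2N1, an inhibitor of a calmodulin-dependent kinase, had 6.54 in both charcoal arrays and 6.30 and 6.11 in full serum, a difference of -0.33 (95% CI -0.57 to -0.10, limma adjusted p = 0.39). DDC, the decarboxylase of dopamine synthesis, had 5.56 and 5.48 against 5.38 and 5.18, a difference of -0.24 (95% CI -0.49 to 0.01, limma adjusted p = 0.619). In both genes the full-serum arrays were the lower ones, as in 18.7% of all genes tested, and neither passed the test.

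Outside the androgen list, the largest called rises included MALT1, SNAI2, ENDOD1 and RASSF3. MALT1, a paracaspase of NF-kappaB signalling, had 5.74 and 5.99 in charcoal and 6.82 and 6.69 in full serum, a rise of 0.89 (limma adjusted p = 0.0111). ENDOD1, an endonuclease domain gene, rose by 0.88 (limma adjusted p = 0.0209), from 7.51 and 7.14 to 8.29 and 8.12. RASSF3, of the Ras association domain family, rose by 0.85 (limma adjusted p = 0.00301), from 7.37 and 7.26 to 8.21 and 8.11. The arrays of these genes did not overlap between the sera, as for 39.6% of all genes tested, which adds no support to the calls. The epithelial ETS factor gene EHF rose by 0.55. With the assumed constant of 16 subtracted, MALT1, ENDOD1, RASSF3 and EHF lost their calls. ENDOD1 was not called with no filter on low values either, and its rise ran from 0.70 to 1.07 with single arrays left out. DEPDC1 and AADAT, named after their values were seen, rose by 0.52 and 0.44.

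SNAI2, which encodes Slug, a repressor factor of epithelial-mesenchymal transition, had 5.15 and 4.91 in charcoal and 5.91 and 5.89 in full serum, a rise of 0.87 (SE 0.0977, limma adjusted p = 0.00301), or of 1.41 with the assumed constant of 16 subtracted. The remaining measured mesenchymal genes were not called. The intermediate filament gene VIM had a difference of -0.05 (95% CI -0.33 to 0.22) and the fibronectin gene FN1 of 0.12 (95% CI -0.22 to 0.45). Of 24 fibroblast and mesenchymal markers 6 were tested, 5 of them higher, and their mean level relative to each gene's mean over 12 arrays was -0.0569 and -0.124 in charcoal and 0.0848 and 0.118 in full serum. That mean includes SNAI2 itself, and the other 5 had differences from -0.05 to 0.14 with none called. No marker can be at 0 on this array, and the lowest value in the table was 17.3. The part of other cells in the SNAI2 result was not tested.

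**Figure D2:**
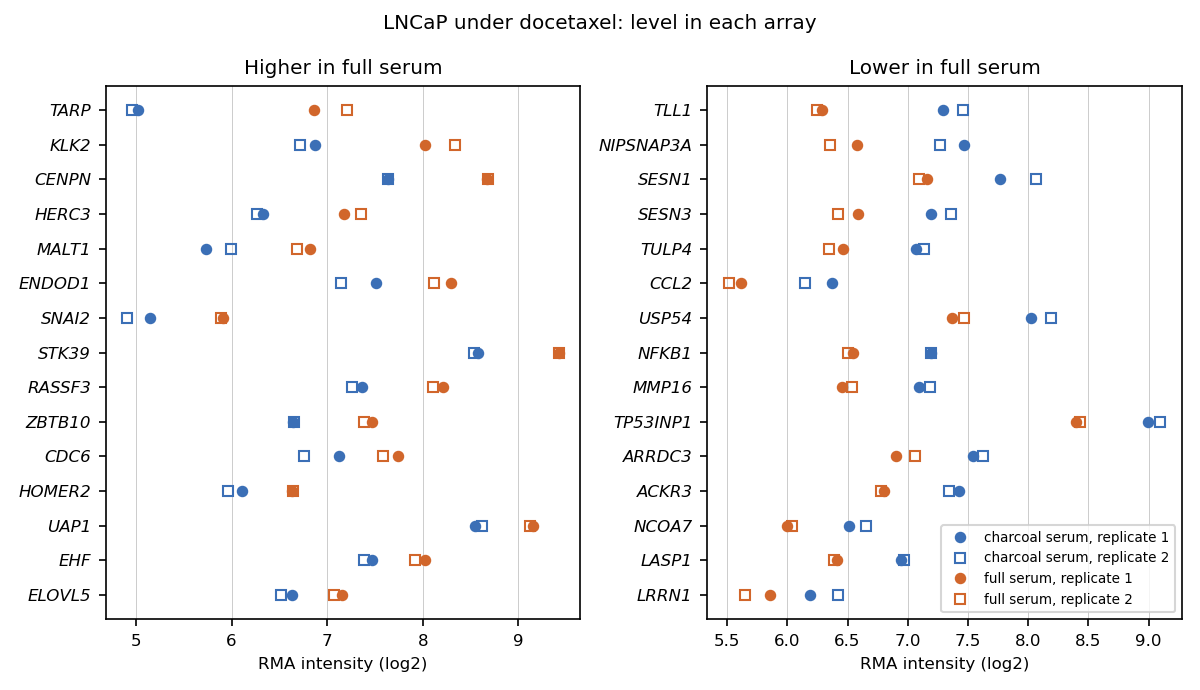
Log2 RMA intensity (x axis) of the 15 genes with the largest called rise and the 15 with the largest called fall, shown for each of the 4 docetaxel arrays. Blue is charcoal and orange full serum, filled circles are replicate 1 and open squares replicate 2. Only genes whose arrays do not overlap between the sera were taken, so that separation adds no support.

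Genes of DNA replication were higher in full serum as a group, mostly by amounts too small to be called singly. CDC6 (16834056), which loads the replicative helicase at origins, had 7.12 and 6.76 in charcoal and 7.74 and 7.59 in full serum, a rise of 0.72 (SE 0.127, 95% CI 0.44 to 1.00, limma adjusted p = 0.0477). PCNA, the sliding clamp of DNA polymerases, had 7.92 and 7.90 against 8.20 and 8.35, a difference of 0.36 (95% CI 0.21 to 0.52, limma adjusted p = 0.0785). CDC6 passed narrowly and PCNA did not. The arrays of both lay apart with full serum above, as did those of 20.9% of all genes tested. When single arrays were left out, CDC6 was called only without charcoal docetaxel replicate 1, with adjusted p up to 0.35 otherwise. All 28 tested genes of 56 listed had a higher mean in full serum, against 52.9% of all genes. Their median difference was 0.214. At an unadjusted p under 0.05 stood 14 higher and 0 lower, beside 4.03% and 4.1% of all genes. Limma called 1, beside 0.162% of all genes called higher. The arrays of 25 lay apart with full serum above, beside 20.9%. The cyclin gene CCNE2 had 0.23, CDC45, of the replicative helicase, 0.23, the checkpoint adaptor gene CLSPN 0.17 and the helicase gene MCM5 0.16, none of them called. MCM5 had 0.077 without full-serum docetaxel replicate 2. In bulk RNA, fewer cells in S phase and less of these transcripts per cell cannot be told apart.

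The start region of CDC6 is shown because CDC6 was the called member of that group. It is the RefSeq promoter on GRCh38.p14 at chr17:40287629-40287878, plus strand, 250 bases before the start, with capitals marking TTGGCGGGA, an E2F motif that was chosen after the window had been seen.
CDC6: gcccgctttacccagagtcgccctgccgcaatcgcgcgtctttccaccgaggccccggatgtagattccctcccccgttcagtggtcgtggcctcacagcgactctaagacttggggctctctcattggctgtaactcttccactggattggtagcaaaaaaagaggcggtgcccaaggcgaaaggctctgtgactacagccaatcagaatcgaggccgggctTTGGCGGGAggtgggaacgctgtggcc
The match begins 27 bases before the start. On both strands, 97 of 35116 promoters (0.28%) hold these letters, and among the promoters of called genes only that of CDC6 does.

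Averaged over the 28 replication genes, each centred on its mean over 12 arrays, the level was -0.109 and -0.203 in the charcoal docetaxel arrays and 0.0796 and 0.0773 in the full-serum docetaxel arrays. The same mean was 0.117 and 0.00784 in charcoal vehicle arrays and 0.217 and 0.137 in full-serum vehicle arrays. Under cabazitaxel it was -0.134 and -0.26 in charcoal and 0.0555 and 0.0147 in full serum. The lowest 4 arrays of the series on this measure were those of both taxanes in charcoal serum. Full-serum arrays were above charcoal arrays within each treatment. The charcoal docetaxel replicate 2 array was the lower of its pair, and without it the median difference was 0.166 with 26 of 28 genes higher.

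**Figure D3:**
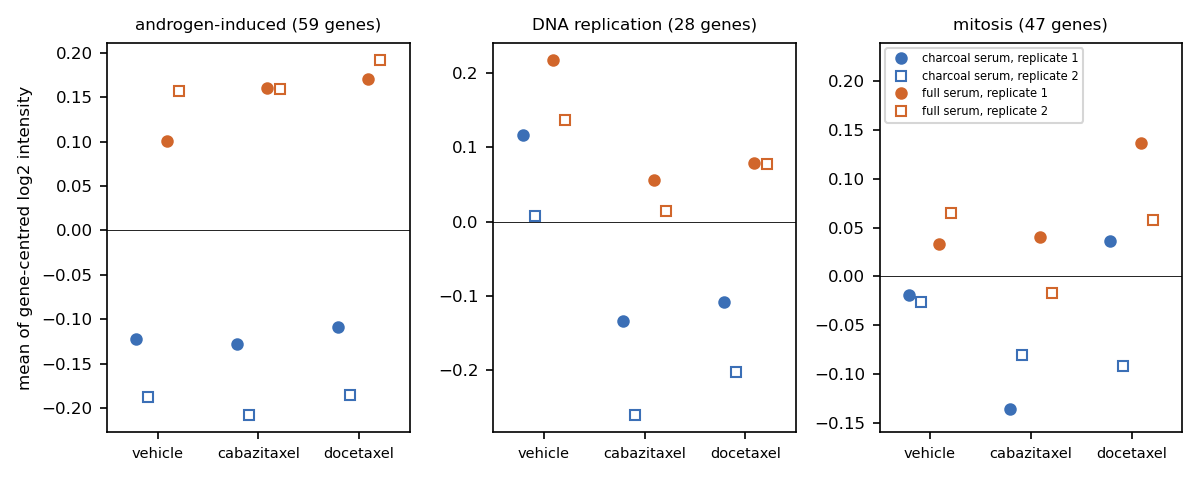
Mean gene-centred log2 intensity (y axis) of the 59 androgen-induced, 28 DNA replication and 47 mitosis genes in each array, by treatment (x axis), with charcoal serum in blue, full serum in orange and replicates by marker shape. Androgen-induced genes split by serum at every treatment, while the mitosis mean of charcoal docetaxel replicate 1 (0.0368) lies close to that of full-serum docetaxel replicate 2 (0.0578).

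Mitotic genes differed less. Of 47 tested among 60 listed, 38 were higher and 9 lower in full serum, with a median of 0.111, and CENPN was the only called member, beside 0.162% of all genes called higher. At an unadjusted p under 0.05 stood 6 higher and 0 lower, beside 4.03% and 4.1% of all genes, and the arrays of 17 lay apart with full serum above, beside 20.9%. The mitotic kinase gene PLK1 had 7.54 and 7.41 in charcoal against 7.52 and 7.48 in full serum, a difference of 0.02 (95% CI -0.21 to 0.25). The cyclin B gene CCNB1 had a difference of 0.12 (95% CI -0.09 to 0.33), or 0.00892 without full-serum docetaxel replicate 1, and the proliferation marker gene MKI67 had -0.08 (95% CI -0.49 to 0.33). Arrays overlapped between the sera for all 3. The list rests in part on a single array, since without charcoal docetaxel replicate 2 the median fell to 0.0298 and 29 of 47 genes were higher.

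Microtubule-associated genes, whose products bind the polymer that docetaxel stabilises, were split, with 15 of 31 higher and 16 lower and a median of -0.00547. The sign of that median changed with single arrays, from -0.0174 without charcoal docetaxel replicate 2 to 0.037 without charcoal docetaxel replicate 1. Limma called 0 of them, and at an unadjusted p under 0.05 stood 2 higher and 1 lower, beside 4.03% and 4.1% of all genes. The extremes were EML4, at -0.34, and MAP9, at 0.18, or 0.108 without charcoal docetaxel replicate 2.

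Called falls included several stress-response genes. SESN1 (17022362), a sestrin that restrains mTORC1 and is a target of p53 and FOXO factors, had 7.77 and 8.07 in charcoal and 7.16 and 7.10 in full serum, a fall of 0.79 (difference -0.79, SE 0.0959, limma adjusted p = 0.00534). SESN3 (16743432), a FOXO-regulated sestrin, had 7.19 and 7.36 against 6.59 and 6.42, a difference of -0.77 (SE 0.112, limma adjusted p = 0.0166). TP53INP1, a stress-induced gene of autophagy and cell death, had 9.00 and 9.10 against 8.40 and 8.43, a difference of -0.63 (SE 0.0988, limma adjusted p = 0.0213). In each of these genes both charcoal arrays were the high ones, as in 18.7% of all genes tested. SESN3 kept its call only without charcoal docetaxel replicate 1, and TP53INP1 in none of the fits that left out an array (adjusted p up to 0.218). CCNG2, an atypical cyclin gene linked to cell cycle arrest, had 5.88 and 5.92 against 5.42 and 5.33, and passed narrowly with -0.53 (limma adjusted p = 0.0493).

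The rest of their lists was split. Of 20 tested FOXO targets 8 were higher and 12 lower, with a median of -0.0237, and it was -0.123 without full-serum docetaxel replicate 1. Limma called 0 higher and 4 lower, beside 0.162% and 0.153% of all genes. Of 17 tested p53 targets 6 were higher and 11 lower, with a median of -0.0679, which was -0.115 without full-serum docetaxel replicate 1 (4 of 17 higher) and -0.0216 without full-serum docetaxel replicate 2. Limma called 0 higher and 2 lower, beside the same shares of all genes, and both also stand on the FOXO list. The proapoptotic p53 target gene BAX had a difference of -0.21 (limma adjusted p = 0.607). The forkhead motif GTAAACA was in 2.98% of all promoters and in 2 of 21 promoters of called lower genes, those of ARRDC3 and USP54, and in 1 of 21 of called higher genes, that of EHF.

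Inflammatory genes moved in both directions. CCL2 (16833204), a chemokine that draws monocytes, had 6.37 and 6.14 in charcoal and 5.62 and 5.51 in full serum, a difference of -0.69 (SE 0.115, 95% CI -0.94 to -0.44, limma adjusted p = 0.0347). NFKB1, which encodes the p105 and p50 subunit, had 7.20 and 7.19 against 6.54 and 6.51, a difference of -0.67 (SE 0.0944, limma adjusted p = 0.0137). Both fell while MALT1 rose, though with single arrays left out CCL2 and NFKB1 were called in none of the fits (adjusted p up to 0.299 and 0.148). MALT1 was called only without charcoal docetaxel replicate 2 (adjusted p up to 0.176 otherwise). Of 13 tested genes of the NF-kappaB and inflammatory list 3 were higher and 10 lower, with 1 called higher and 2 called lower beside 0.162% and 0.153% of all genes. The median was -0.0524, and -0.0966 without full-serum docetaxel replicate 1. ACKR3, an atypical receptor that scavenges chemokines, fell by 0.59 (difference -0.59, limma adjusted p = 0.0261), from 7.42 and 7.34 to 6.81 and 6.78, and was called in none of those fits (adjusted p up to 0.232).

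The other called falls were of mixed function. TLL1 (16972198), a metalloprotease of the BMP1 family, had 7.30 and 7.46 in charcoal and 6.29 and 6.24 in full serum, a difference of -1.11 (SE 0.114, 95% CI -1.36 to -0.86, limma adjusted p = 0.00158). NIPSNAP3A had 7.47 and 7.27 against 6.58 and 6.36, and its difference of -0.90 passed narrowly (limma adjusted p = 0.0497). The arrays of both genes did not overlap between the sera, as for 39.6% of all genes tested, which adds no support to the calls. MMP16, a membrane-bound matrix metalloprotease gene, had a difference of -0.64 (limma adjusted p = 0.0209) and TULP4 of -0.70 (limma adjusted p = 0.028). USP54, a ubiquitin-specific protease family gene, had -0.69 (limma adjusted p = 0.00602). ARRDC3, an arrestin-domain gene, had -0.60, the coactivator gene NCOA7 -0.56, LASP1, which encodes an actin-binding protein, -0.56, and LRRN1 -0.55. With the assumed constant of 16 subtracted, TLL1 kept its call. NIPSNAP3A, MMP16, TULP4, USP54, ARRDC3, NCOA7, LASP1 and LRRN1 lost theirs. With no filter on low values, NIPSNAP3A, MMP16, TULP4, NCOA7 and LRRN1 were not called either. CDK8, the kinase of the Mediator complex, had -0.49 and was named after its value was seen.

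**Figure D4:**
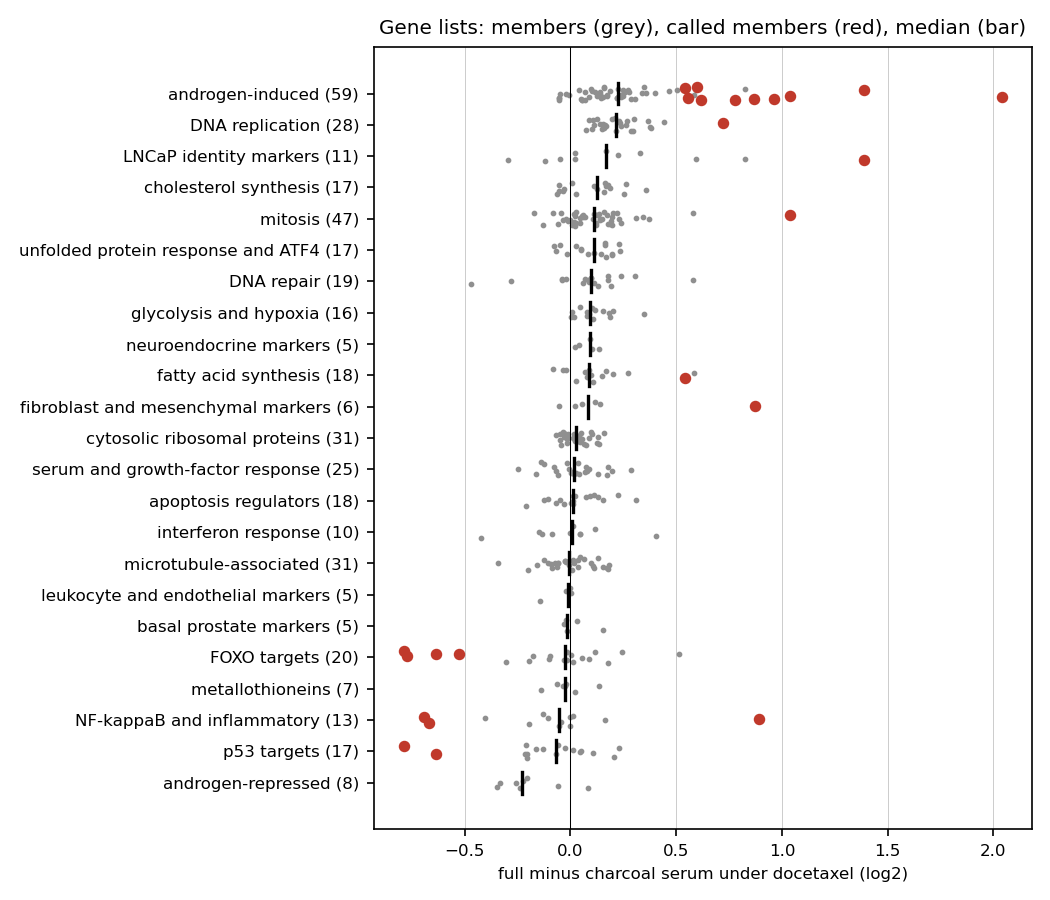
Full minus charcoal difference under docetaxel (x axis, log2) for the tested members of 23 gene lists, with the number tested in parentheses. Grey points were not called, red points were called, and the black bar is the median, which is 0.227 for androgen-induced, 0.214 for DNA replication and -0.231 for androgen-repressed genes.

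The serum difference under docetaxel was then set beside that in vehicle and in cabazitaxel. These comparisons share no array with it, though all 12 arrays share the normalisation and the estimate of the spread. Limma called 44 genes under vehicle (0.396%) and 44 under cabazitaxel (0.396%). Without full-serum vehicle replicate 1 the vehicle count was nearly unchanged, though in part with other genes. With any other single array of these comparisons left out, the counts were much lower. Under cabazitaxel they were 16 and 17 without charcoal cabazitaxel replicate 1 or 2, and 19 and 9 without full-serum cabazitaxel replicate 1 or 2. Of the 35 docetaxel calls, 27 were also called under vehicle, which is 77.1% of the 35 and 61.4% of the 44, and 28 under cabazitaxel, which is 80% of the 35 and 63.6% of the 44. All 35 had the same sign under both other treatments. Of all genes, 57.4% had the same sign under docetaxel and vehicle, 56.5% under docetaxel and cabazitaxel, and 35.6% under all 3. Across 11105 genes the differences under docetaxel and vehicle correlated with Pearson r = 0.388 and Spearman rho = 0.253, and those under docetaxel and cabazitaxel with r = 0.375 and rho = 0.225. Genes are not independent replicates, and these correlations are descriptions.

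For the leading genes the 3 serum differences had the same sign and similar size. TARP had 2.04 under docetaxel, 1.86 under vehicle and 1.94 under cabazitaxel. KLK2 had 1.39, 1.62 and 1.41 in the same order, and KLK3 had 0.83, 1.11 and 0.96. KLK3 was called under vehicle and under cabazitaxel, though not under docetaxel. Among the falls, SESN1 had -0.79, -0.75 and -0.75. The interval of the docetaxel minus vehicle difference ran from -0.13 to 0.50 for TARP, from -0.73 to 0.26 for KLK2 and from -0.33 to 0.26 for SESN1. No difference between these treatments was detected for these genes, and differences within these intervals were not excluded.

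Called under docetaxel and under neither other treatment were 6 genes, CDC6, NIPSNAP3A, TULP4, NCOA7, LRRN1 and CCNG2. CDC6 had 0.72 under docetaxel, 0.28 under vehicle and 0.55 under cabazitaxel. In vehicle, CDC6 levels were 7.38 and 7.37 in charcoal and 7.69 and 7.62 in full serum, so that both charcoal docetaxel arrays, at 7.12 and 6.76, lay below both charcoal vehicle arrays. The docetaxel minus vehicle serum difference of CDC6 was 0.44 (95% CI 0.04 to 0.83, limma unadjusted p = 0.0334, adjusted p = 0.999). NCOA7 had -0.56 under docetaxel, -0.34 under vehicle and -0.19 under cabazitaxel, and its docetaxel minus cabazitaxel value was -0.38 (95% CI -0.68 to -0.07, limma unadjusted p = 0.0201). None of these 6 genes was shown to differ in its serum response between treatments once all genes were taken into account.

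**Figure D5:**
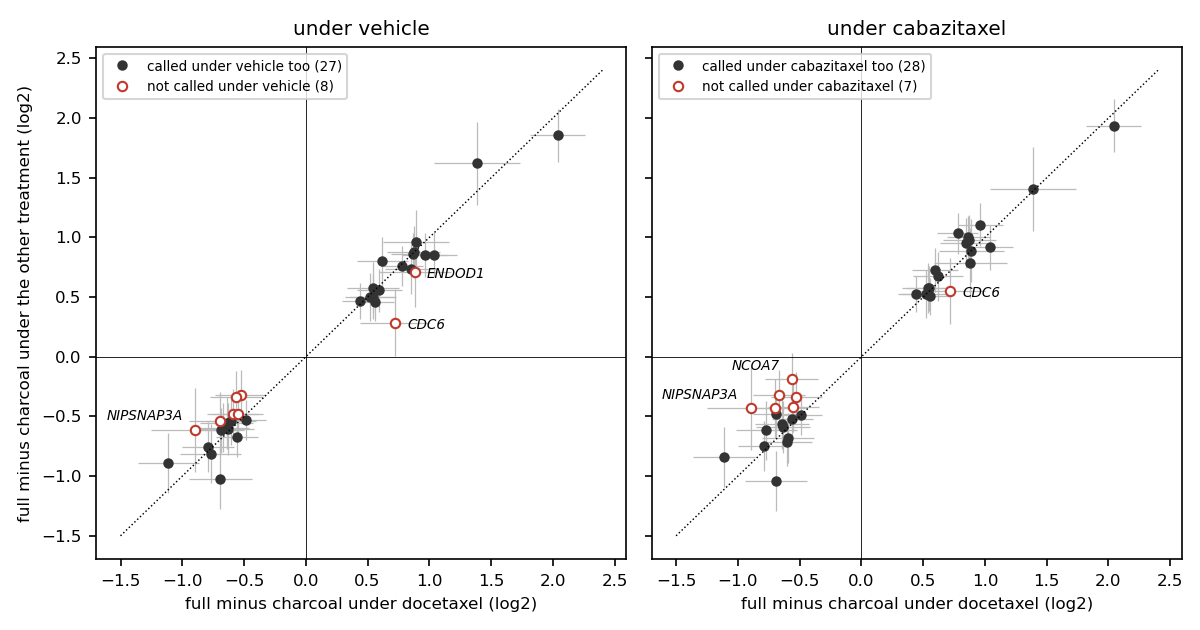
Full minus charcoal difference (log2) of the 35 docetaxel calls under docetaxel (x axis) and under vehicle or cabazitaxel (y axis), with 95% confidence intervals as grey bars and the line of equal values dotted. Filled points were called under the other treatment too (27 and 28), open points were not (8 and 7), and all 35 lie in quadrants of equal sign.

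The chemokine gene CCL2 had its smallest serum difference under docetaxel. It was -0.69 under docetaxel, -1.02 under vehicle and -1.04 under cabazitaxel, and all 3 were called. The docetaxel minus vehicle value was 0.33 (95% CI -0.03 to 0.69, limma unadjusted p = 0.0685) and the docetaxel minus cabazitaxel value 0.35 (95% CI -0.01 to 0.71, limma unadjusted p = 0.0542).

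Tested over all genes, limma called 0 interactions of docetaxel with vehicle and 0 of docetaxel with cabazitaxel, with 401 and 402 genes at an unadjusted p under 0.05 and 555 reached by chance. The lowest adjusted p was 0.999 for vehicle, and a p that misses the threshold does not show that serum responses were alike. With the smallest unadjusted p against vehicle, EIF5A2, an isoform gene of the hypusinated translation factor, had serum differences of 0.02 under docetaxel and -0.57 under vehicle (difference 0.60, 95% CI 0.35 to 0.85, limma unadjusted p = 0.000284). NIPAL3, a magnesium transporter family gene, had 0.03 under docetaxel, -0.44 under vehicle and -0.50 under cabazitaxel. The dynein adaptor gene BICD2 had 0.35 under docetaxel, -0.22 under vehicle and 0.05 under cabazitaxel. PCNA had 0.36, 0.04 and 0.24, with a docetaxel minus vehicle value of 0.32 (95% CI 0.10 to 0.54, limma unadjusted p = 0.00894). None of these passed the adjustment.

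The list medians were set side by side as well. For androgen-induced genes the median was 0.227 under docetaxel, 0.155 under vehicle and 0.151 under cabazitaxel, and for androgen-repressed genes it was -0.231, -0.238 and -0.247. The DNA replication list had 0.214, 0.108 and 0.241, with 28, 23 and 27 of 28 genes higher in full serum. The mitosis list had 0.111, 0.0396 and 0.101. The differences between these medians were not tested.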

How the data were processed

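The authors deposited array intensities on a linear scale. RMA is the normalisation that the submitters' processing notes name, without a version. Values ran from 17.3 to 6307 with a median of 22.3, and 57.5% lay below 24, so weak genes' changes are compressed if a constant was added, which the sources used here do not say. The series text mentions a filter on low expression, and the table held 44629 transcript clusters. Of these 15835 had 1 gene symbol and 28794 none. The cluster with the highest mean over 12 arrays stood for each of 14812 genes, and 11105 genes entered the tests, namely those whose intensity exceeded the overall median in 2 or more arrays.

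Log2 values were fitted with limma 3.58.1 in R 4.3.3, with a mean for each of 6 groups, 6 residual and 5.08 prior degrees of freedom, two-sided p and Benjamini-Hochberg adjustment within each comparison. The fits were also run on simulated arrays with independent noise, only to check that the mean estimate matched planted changes. That run does not show that the calls hold. Named were the 15 largest called rises and falls, called or lowest-p list members, a set of genes always given, and the 5 lowest-p genes of each interaction and direction. Members, lists and the comparison were chosen with earlier results of these data known. Numbers of replicates were not taken as pairs, since no label says that same-numbered arrays belong together and each comparison has only 2 pairs. The deviations of same-numbered arrays correlated mostly positively, at -0.0486 to 0.326 over 15 pairs of groups, with 10 over 0.1. With a replicate block, limma called 62 genes under docetaxel in place of 35. Whether the replicates share a batch was not tested. Alternatives were the 4 docetaxel arrays alone, a replicate block, other filters, an assumed offset of 16, other scalings, an intensity trend, mean clusters, the methods' t-test and leaving out each array.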

Additional observations from a re-analysis of the deposited data

Results flagged for a closer look

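STEAP4, a metalloreductase gene on the androgen-induced list, had arrays apart with full serum lower under docetaxel (log2 difference -0.056) and with full serum higher under vehicle (0.0952). The test of the difference between the treatments gave -0.15 (95% CI -0.41 to 0.11, limma unadjusted p = 0.222). STMN3, of the stathmin family of microtubule-destabilising proteins, had arrays apart with full serum higher under docetaxel (0.172, or 0.072 without full-serum docetaxel replicate 1) and lower under vehicle (-0.17) and cabazitaxel (-0.266). Its docetaxel minus vehicle value was 0.34 (95% CI 0.04 to 0.64, limma unadjusted p = 0.0296) and its docetaxel minus cabazitaxel value 0.44 (95% CI 0.14 to 0.74, limma unadjusted p = 0.00842). Neither gene passed over all genes. Of 11105 genes, 451 had arrays apart in opposite directions under docetaxel and vehicle, and 496 under docetaxel and cabazitaxel. Among 13812 tested transcript clusters that carry no gene name here and entered no gene comparison, limma called 27 (0.195%) under docetaxel, 20 higher and 7 lower in full serum, with the largest rise at 2.20 and the largest fall at -1.08.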

How the results depend on the processing

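The 35 docetaxel calls became 12 in the 4 docetaxel arrays alone (10 shared), 62 with the replicate block (all 35 kept, pairing not established), 22 with no filter on low values, 9 with an assumed offset of 16 subtracted (7 higher, 2 lower) and 0 with the methods' t-test after Benjamini-Hochberg adjustment (778 at an unadjusted p under 0.05). Leaving out single arrays gave 7 to 21. With 31 to 43 calls, the other settings kept the count within 1.5 times. The 44 vehicle calls became 70 with the replicate block and 16 with the offset, and 7 to 43 without single arrays. The 44 cabazitaxel calls became 25 with no filter and 10 with the offset, and 9 to 19 without single arrays. The replicate block changed the cabazitaxel count to 47. Limma called 0 interactions in every setting run. All 35 genes kept their direction in all settings. With single arrays left out or the offset subtracted, their non-overlapping arrays fixed this in advance, so it adds no support. The 4-array fit, the replicate block, the other filters, the intensity trend and the t-test left each difference unchanged, so direction was fixed there too. Only the other scalings and mean clusters could have changed a direction. Sizes of the 35 genes moved to between 0.749 and 1.61 times, the latter with the offset, where TARP had 2.86 (7.27-fold) and SNAI2 1.41. Without single arrays, 2 genes that were not called changed sign, PLK1 (-0.0478 to 0.0889) and VIM (-0.153 to 0.0447). Of genes not called, RAD54B and ABHD2 were called with the replicate block and with the stricter filter, ABHD2 also with the intensity trend, and GPR158 with the replicate block and with mean clusters. The cause of these changes was not tested.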

Other observations

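Among the metabolic and secretory gene lists, glycolysis, fatty acid synthesis, cholesterol synthesis and the unfolded protein response had more members higher than lower in full serum under docetaxel, with few or no calls. All 16 tested glycolysis and hypoxia genes had a higher mean in full serum (median 0.0946, against 52.9% of all genes higher and a median of 0.0079). Limma called 0, with 2 higher and 0 lower at an unadjusted p under 0.05, beside 4.03% and 4.1% of all genes. NDRG1, which responds to both hypoxia and androgen, had 5.23 and 5.19 in charcoal against 5.49 and 5.62 in full serum, a difference of 0.35 (limma adjusted p = 0.259). GPI, of glycolysis, had 0.18 and LDHA, lactate dehydrogenase A, 0.16, neither called, and LDHA had 0.0614 without charcoal docetaxel replicate 2. Without charcoal docetaxel replicate 2 the list's median was 0.0265 and 10 of 16 were higher. Of 18 tested fatty acid synthesis genes 15 were higher, with ELOVL5 called, beside 0.162% of all genes called higher. Of 17 cholesterol synthesis genes 12 were higher (median 0.125), and limma called 0, with 1 higher and 0 lower at an unadjusted p under 0.05, beside 4.03% and 4.1% of all genes. That gene is INSIG1, a sterol-sensing regulator, at 0.36. Of 17 genes of the unfolded protein response and ATF4 13 were higher (median 0.11), with 0 called. At an unadjusted p under 0.05, 2 were higher and 0 lower, beside 4.03% and 4.1% of all genes. Without charcoal docetaxel replicate 2 the cholesterol median was 0.0643, with 10 of 17 higher, and that of the unfolded protein response 0.0497. MANF, a secreted protein of endoplasmic reticulum stress, had 5.54 and 5.51 against 5.73 and 5.78, a difference of 0.23 (limma adjusted p = 0.308). Its arrays lay apart, as did those of 39.6% of all genes tested.

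DNA repair genes were mixed. RAD54B, a recombination helicase gene, had 6.14 and 6.15 in charcoal and 6.69 and 6.77 in full serum, a difference of 0.58 that did not pass (limma adjusted p = 0.0586), and its serum difference was 0.59 under vehicle and 0.53 under cabazitaxel. BARD1, the partner of BRCA1, had 8.12 and 8.27 against 7.78 and 7.67, a difference of -0.47 (limma adjusted p = 0.197). The 2 genes lay on opposite sides with arrays apart, as for 39.6% of all genes tested. Of 19 tested repair genes 14 were higher and 5 lower. Cytosolic ribosomal protein genes had a median of 0.0263 over 31 genes, with 0 called and 0 at an unadjusted p under 0.05, beside 8.13% of all genes. GPR158, an orphan receptor gene, had 6.10 and 6.36 against 6.81 and 6.90, a difference of 0.63 (limma adjusted p = 0.102), beside 0.99 under vehicle and 0.82 under cabazitaxel. ABHD2, a lipid hydrolase gene, had 7.78 and 7.83 against 8.44 and 8.67, a difference of 0.75 (limma adjusted p = 0.054), beside 0.80 and 0.75.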
